A study of Mus musculus with 6 samples.

Results

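The microRNAs (miRNAs) miR-341 and miR-1188 come from 2 hairpins that lie side by side on mouse chromosome 12, inside the imprinted Dlk1-Dio3 domain. They were read by 3 reporters, mmu-miR-341*, mmu-miR-341 and mmu-miR-1188, among the 1078 reporters on each array, and all 3 were found by name on every array; the species prefix is left out from here on. They were chosen from the measured values: miR-341* had the largest rise with TNF-α, and its other arm and its neighbour were added to it. Their differences between the groups are therefore given as descriptions, with no test.

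The arrays held RNA of cultured VSMCs, the vascular smooth muscle cells that contract and relax the vessel wall. They came from C57BL/6 mice, 8 weeks old, whose abdominal aorta was the source tissue, and were harvested after several passages. TNF-α cultures (n = 3), exposed to an inflammatory cytokine that signals through NF-kB, were set against untreated control cultures (n = 3). The cultures were independently grown per the labels, which give neither the dose and duration of the cytokine nor the number of mice. One colour, Cy5, was read on each array, and each value is the median density of a reporter in linear scanner units.

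A miRNA gene is transcribed as a long RNA from which a hairpin is cut, and Dicer then releases a short duplex whose arms are named 5p and 3p. Usually 1 arm is retained by Argonaute, and bases 2 to 8 of that arm, the seed, pair with target mRNAs. The Dlk1-Dio3 domain carries Dlk1, Rtl1 and Dio3, which are expressed from the paternal chromosome, and the long noncoding RNAs Meg3, Rian and Mirg, which are expressed from the maternal one and host many miRNAs and small nucleolar RNAs. The domain is best known from the embryo, brain and mouse pluripotent stem cells. An asterisk in the older names of these arrays marks the arm once held to be the less abundant. In the current nomenclature miR-341* is miR-341-5p, miR-341 is miR-341-3p, miR-1188 is miR-1188-5p and miR-1188* is miR-1188-3p; this equivalence comes from the history of the names and not from the array files.

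The mature sequences, from RefSeq (GRCm38.p6, plus strand), are shown because the 4 arms behaved differently on the arrays. The seed is in capitals.
miR-341*, chr12:109611521-109611541: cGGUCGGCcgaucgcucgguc
miR-341, chr12:109611556-109611576: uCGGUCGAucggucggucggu
miR-1188, chr12:109611841-109611861: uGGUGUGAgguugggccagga
miR-1188*, chr12:109611877-109611901: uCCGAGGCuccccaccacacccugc

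Each seed differed from the other 3, and none occurred in any other of the 1679 mature mouse sequences of the table, so no reporter could be grouped with them by seed. Both arms of miR-341 hold the motif GGUC more than once. This motif, read on the RNA strand alone and counting overlaps, occurs 2 times in miR-341* and 3 times in miR-341, and it is present in 7.03% of all mature sequences in the table. No sequence other than miR-341 holds it 3 or more times. The G and C content of miR-341* is 76.2%, a level that 2.02% of the sequences reach, and the table's median is 52.2%. The content of miR-341 is 66.7%, that of miR-1188 61.9% and that of miR-1188* 72.0%.

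The arms of miR-341 also resemble each other. The longest run they share has 7 bases and occurs in no other mature sequence of the table; it is in capitals here, where copies that overlap appear as 1 block.
miR-341*: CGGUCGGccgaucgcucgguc
miR-341: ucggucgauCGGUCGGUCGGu
Outside its own hairpin, miR-341* shares at most 8 bases in a row with another mature sequence (miR-423-3p and miR-6965-3p), and miR-341 shares 8 with miR-540-3p. The sequences of the array probes were not used here, so hybridisation between similar sequences was not tested.

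The hairpins themselves are shown with both arms in capitals, to place the arms and their neighbours.
Mir341, chr12:109611500-109611595: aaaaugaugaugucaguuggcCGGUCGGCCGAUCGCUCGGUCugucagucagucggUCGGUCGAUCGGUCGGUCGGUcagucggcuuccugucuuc
Mir1188, chr12:109611822-109611941: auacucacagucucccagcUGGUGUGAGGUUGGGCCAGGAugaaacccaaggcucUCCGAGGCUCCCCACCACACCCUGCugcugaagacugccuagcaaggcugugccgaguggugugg
The gap between them is 226 bases, and both lie within the gene of Rian (also called Meg8), the snoRNA host of the domain, on the same strand. On that strand the next hairpin upstream is Mir136, 16.1 kb away, and the next downstream is Mir370, 6.32 kb away. Mir3071 overlaps Mir136 on the opposite strand.

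The arrays of both groups differed in their background. The background peak, the commonest density on an array, was 82.3 to 91.6 on TNF-α arrays and 68.3 to 76.5 on control arrays. A background limit was set for each array at this peak plus 3 SD of the values below it. The limit ran from 118 to 132 on TNF-α arrays and from 93.8 to 103 on control arrays, and 228 to 246 reporters exceeded it on TNF-α arrays against 284 to 326 on control arrays. The group and this shift in background cannot be told apart, and it bears on dim reporters far more than on bright ones. The VSMC markers miR-143 and miR-145 were bright in both groups, with a summed density of 8799 to 10381 on TNF-α arrays and 7699 to 9551 on control arrays. Of 6 blood cell markers 0 were above the limit on at least 3 arrays, and their summed density was 454 to 518 on TNF-α arrays and 427 to 461 on control arrays. Of 2 endothelial markers, miR-126-3p alone was, and the list summed to 193 to 233 on TNF-α arrays and 185 to 219 on control arrays. Of 4 striated muscle markers matched by exact name, miR-206 alone was. It read 189 ± 17.7 with TNF-α and 257 ± 19.9 in controls (SD, n = 3 each). The level of miR-206 was lower with TNF-α (-0.49, limma, adjusted p = 0.00339). The listed miR-1 and miR-208a matched no reporter by exact name. miR-208a-5p, not counted in the list, also exceeded the limit on at least 3 arrays (-0.095, limma, adjusted p = 0.389). The striated list summed to 418 to 485 on TNF-α arrays and 459 to 510.4 on control arrays. Of 3 neuronal markers and 1 liver marker, 1 (miR-128) was; the neuronal list summed to 395 to 439.95 on TNF-α arrays and 424 to 432 on control arrays, and the liver marker read 79.8 to 89.2 on TNF-α arrays and 83.03 to 93.5 on control arrays. The part of any such cells in the results was not tested. A change in the make-up of a culture and a change in the RNA of each cell cannot be told apart in these bulk samples.

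miR-341*, the 5p arm, was bright in every culture and much brighter with TNF-α. Its density was 6536, 6213 and 5510.5 in the TNF-α cultures, against 2933, 2864 and 1901 in the control cultures. The groups did not overlap, the lowest TNF-α culture lay far above the highest control, and control replicate 3 lay below the other controls. The means were 6086 ± 524 with TNF-α and 2566 ± 577 in controls (SD, n = 3 each). Densities on all TNF-α arrays exceeded those on all control arrays for 38.2% of all reporters and for 18.4% of those above the limit on at least 3 arrays, so a lack of overlap was common here.

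The level of miR-341* was far from background in both groups, at 67.0 to 71.4 times the background peak with TNF-α and 27.8 to 40.2 times in controls. The spread within 1 array, given by the deposited standard deviation, was 3.25% to 3.51% of its density on TNF-α arrays and 2.92% to 5.28% on control arrays. After background correction and quantile normalization its log2 value was 12.53, 12.49 and 12.46 with TNF-α and 11.36, 11.29 and 11.05 in controls. The log2 difference, TNF-α minus control, was 1.26 with a model standard error (SE) of 0.09, or 2.40-fold. In the authors' processed table the means were 6163 ± 251 with TNF-α and 2545 ± 445 in controls (SD, n = 3 each).

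**Figure D1:**
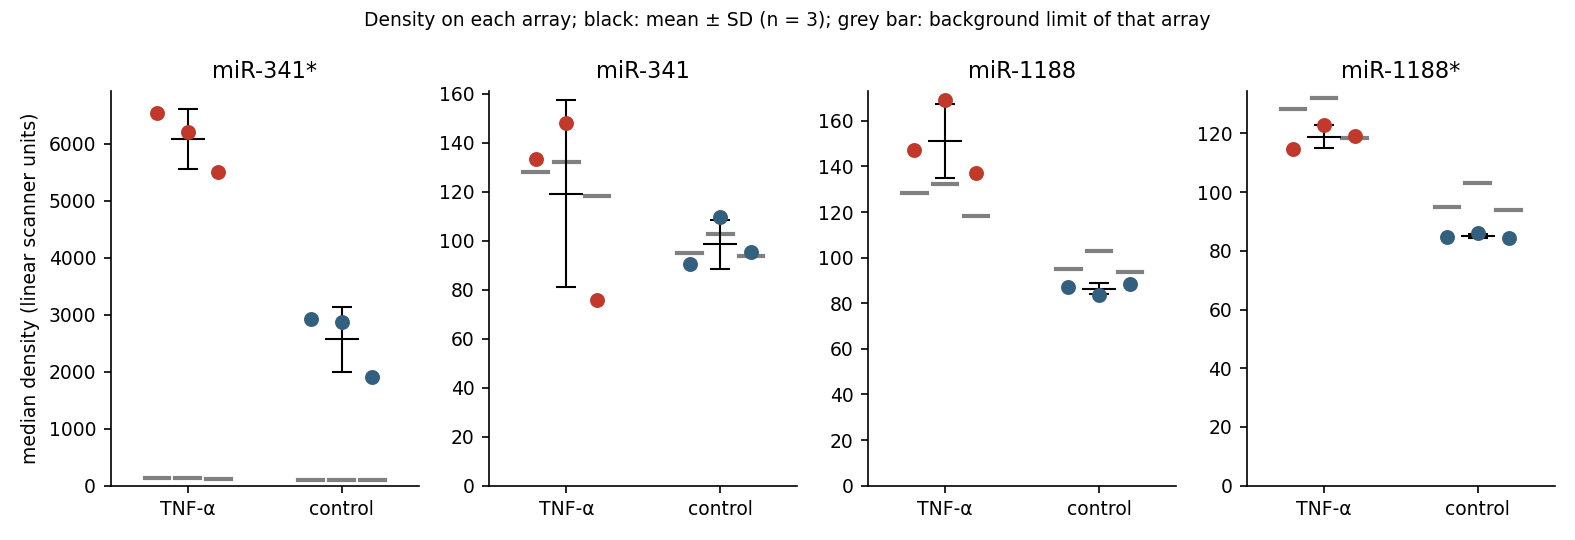
Median density in linear scanner units (vertical axis, from 0, a scale of its own in each panel) of miR-341*, miR-341, miR-1188 and miR-1188* on the 3 TNF-α and 3 control arrays. Points are arrays, black marks the mean ± SD (n = 3) and grey bars the background limit of each array; miR-341* lies far above the limits, whereas the other 3 lie near them, with miR-1188 above the limit with TNF-α only.

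miR-341, the 3p arm of the same hairpin, stayed near background in both groups. Its density was 134, 148 and 76.0 in the TNF-α cultures, against 90.7, 109.8 and 95.4 in the control cultures. The groups overlapped: TNF-α replicates 1 and 2 were the brightest of the 6 and TNF-α replicate 3 was the dimmest. The reporter exceeded the background limit on 2 TNF-α and 2 control arrays. Its mean density was 119 ± 38.1 with TNF-α and 98.6 ± 9.99 in controls (SD, n = 3 each).

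On the normalized log2 scale miR-341 was at 6.91, 7.10 and 6.21 with TNF-α, and at 6.54, 6.77 and 6.73 in controls. The log2 difference was 0.06 ± 0.20 (SE), less than the SD of 0.47 among the TNF-α cultures. In the authors' processed table the arrays read 33.5, 64.4 and 0.01 with TNF-α and 21.5, 37.5 and 29.2 in controls, where 0.01 is the lowest value the table holds. Without TNF-α replicate 3 the log2 difference was 0.33, and without TNF-α replicate 2 it was -0.12, so single arrays set its sign.

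The changes of both arms were compared within each array, as log2 miR-341* minus log2 miR-341 relative to the mean of the controls. This contrast was 1.07, 0.85 and 1.70 on the TNF-α arrays, against 0.27, -0.03 and -0.23 on the control arrays. All TNF-α arrays lay above all control arrays. However, miR-341 was below the background limit on TNF-α replicate 3, which gave the 1.70, and on control replicate 1, so the contrast is not a measured fold on those arrays. On the arrays where both arms exceeded the limit it was 1.07 and 0.85 with TNF-α and -0.03 and -0.23 in controls. These values are still relative to the mean of all controls, control replicate 1 included. The direction was fixed by the choice of miR-341* for its rise, and the contrast is a description. Levels of different reporters were not compared, because each has its own probe.

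miR-1188, the 5p arm of the neighbouring hairpin, was dim but higher with TNF-α. Its density was 147, 169 and 137 in the TNF-α cultures, against 87.2, 83.8 and 88.4 in the control cultures. The groups did not overlap, and the reporter exceeded the background limit in all 3 TNF-α cultures and in 0 of 3 controls. Only 2 of the 1078 reporters (0.186%) showed that pattern, miR-1188 and miR-3473, whereas 30 (2.78%) showed the reverse. The mean density was 151 ± 16.3 with TNF-α and 86.5 ± 2.35 in controls (SD, n = 3 each).

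Because the background was higher on the TNF-α arrays, the density of miR-1188 was also set against the background peak of its own array. It lay 55.9, 77.4 and 54.9 above the peak with TNF-α and 14.3, 7.31 and 20.04 above it in controls. The groups did not overlap after the peak of each array was subtracted. The share of all reporters without overlap on this scale was not computed, so how common this was is unknown. The subtraction removes the position of the background but not its spread. The SD of the values below the peak was larger on every TNF-α array than on any control array. The part of the background in the difference of miR-1188 was not tested. In the processed table the values were 63.7, 77.0 and 53.5 with TNF-α and 18.1, 13.1 and 19.5 in controls.

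The log2 difference of miR-1188 was 0.67 ± 0.09 (SE), from 7.06, 7.30 and 7.14 with TNF-α and 6.49, 6.40 and 6.61 in controls. With no control array above the limit, only a bound can be given, and on this scale miR-1188 was at least 1.41-fold higher with TNF-α. The bound sets the mean of the TNF-α arrays against the lowest normalized value found above the limit on each control array. The choice of the limit matters for 1 array: with the background peak estimated on linear instead of log2 densities, control replicate 3 would exceed its limit by 0.23 density units. The size of the difference also depends on the offset, at 1.07 with the smaller offset of 8 and 0.39 with a larger offset.

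The remaining arm, miR-1188*, is not one of the 3 reporters, was singled out after its values were seen and was tested in the fit across all reporters. Its density was 115, 123 and 119 in the TNF-α cultures, against 84.8, 85.9 and 84.4 in the control cultures. The groups did not overlap, but only TNF-α replicate 3 exceeded the background limit, by 0.63. The log2 difference was 0.30 ± 0.09 (SE, limma, adjusted p = 0.0445), and no fold is given because most TNF-α arrays were also below the limit. Over its alternatives the adjusted p ran from 0.00451 to 0.135, and the call was lost under 8 of 13, among them the omission of any 1 array (0.22 to 0.33) apart from TNF-α replicate 1. Above its background peaks miR-1188* read 30.4 ± 6.78 with TNF-α and 12.5 ± 3.40 in controls (SD, n = 3 each).

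Among the 642 reporters tested, 83 were higher with TNF-α (12.9%) and 63 lower (9.81%) by limma's moderated test at an adjusted p of 0.05, and the median difference of all was 0.01. With 1 array left out 70 to 91 changed, against 146, among 500 to 626 tested. By the size of the difference on this scale miR-341* came first of the 642, which is a description since the choice rested on it; miR-1188 and miR-341, not clear of background in both groups, are not ranked. The next rises after miR-341* were miR-3084 (log2 1.10), miR-466k (0.72), miR-30d (0.71) and miR-3473b (0.68). Of these, miR-466k exceeded the background limit on no array. miR-341* came first under 17 of the 18 alternatives and was at place 5 with an offset of 8.

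**Figure D2:**
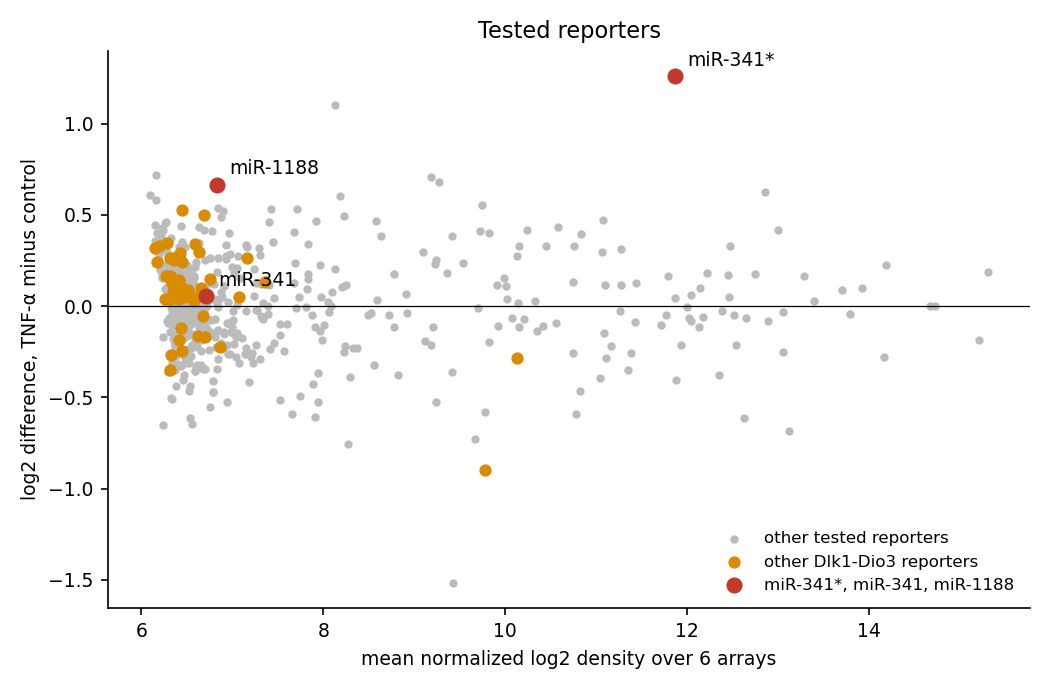
Log2 difference, TNF-α minus control (vertical axis), against the mean normalized log2 density over the 6 arrays (horizontal axis) for the 642 tested reporters, 1 point each. miR-341* stands highest at 1.26 on the right, miR-1188 (0.67) and miR-341 (0.06) lie at the dim end on the left, and the other reporters of the Dlk1-Dio3 domain are in orange.

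The reporters with the most similar profiles were found by the root mean square difference over the 6 arrays of log2 values taken relative to the control mean, among 276 reporters above the limit on at least 3 arrays. For miR-341* the nearest was miR-3084 (0.20), followed by miR-30d (0.40), miR-1188 (0.45) and miR-690 (0.46), against a median of 0.93. miR-3084 read 448, 360.4 and 381 with TNF-α and 194, 198 and 178 in controls. With values taken relative to the control mean, this distance largely reflects the size of the rise, for which miR-341* was chosen. The place of miR-1188 beside its neighbour miR-341* is therefore a description only. Which of these neighbours changed more cannot be said, since only a bound holds for miR-1188.

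For miR-1188 the nearest profiles were miR-690 (0.07), miR-29b, a repressor of collagens (0.08), miR-30d (0.12) and miR-34a, a transcriptional target of p53 (0.12), against a median of 0.52. These 4 had log2 differences of 0.55 to 0.71 and exceeded the background limit on all 6 arrays. miR-1188 exceeded it on no control array, so only a bound holds for its difference. That difference was 1.07 with the smaller offset and 0.39 with the larger one. The distances from miR-1188 therefore hold for the offset used here only. Whether the same reporters would be nearest with another offset was not tested. For miR-341 the nearest were miR-5132 (0.20), miR-5117 (0.21), miR-669k* (0.21) and miR-467g (0.22), against a median of 0.34. These 4 also had their lowest TNF-α density on replicate 3, at 121, 114, 112 and 663. They were picked for likeness to miR-341, whose own low value lies there. The median density of that array was also the lowest with TNF-α, at 85.9 against 96.8 and 97.2. A match in profile over 6 arrays says nothing of a shared gene or regulator.

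Most other hairpins of the domain were at background. A list of 55 hairpins of the domain had 107 reporters on the arrays besides the arms of miR-341 and miR-1188, and 88 of them exceeded the background limit on no array. Of 46 tested, 9 were higher (19.6%, against 12.9% of all tested reporters) and 2 lower (4.35%, against 9.81%), with a median difference of 0.09 against 0.01. However, 20 of the 46, and 7 of the 9 that were higher, reached the filter in all TNF-α cultures and in 0 of 3 controls. They could enter the test only with separated groups, since the filter asks for a minimum density on at least 3 arrays. Over the whole array this held for 117 of the 642 tested reporters and for 34 of the 83 that were higher. Of the 7 reporters of the list above the background limit on at least 3 arrays, 0 were higher and 1 was lower by limma. Of all 277 such reporters on the arrays, 16.2% were higher and 15.9% lower. At an unadjusted p under 0.05 by limma, 0 of the 7 were higher and 4 lower, against 58 and 73 of the 277. So few reporters cannot set the domain apart from the rest of the array. With 1 array left out, the number higher in the full list was between 1, when TNF-α replicate 3 was the one omitted, and 6, when control replicate 1 was; it was 2 and 3 on omitting TNF-α replicate 1 and TNF-α replicate 2, and 4 and 5 on omitting control replicate 2 and control replicate 3. The number lower was 2 on omitting control replicate 3 and 1 in the other cases.

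**Figure D3:**
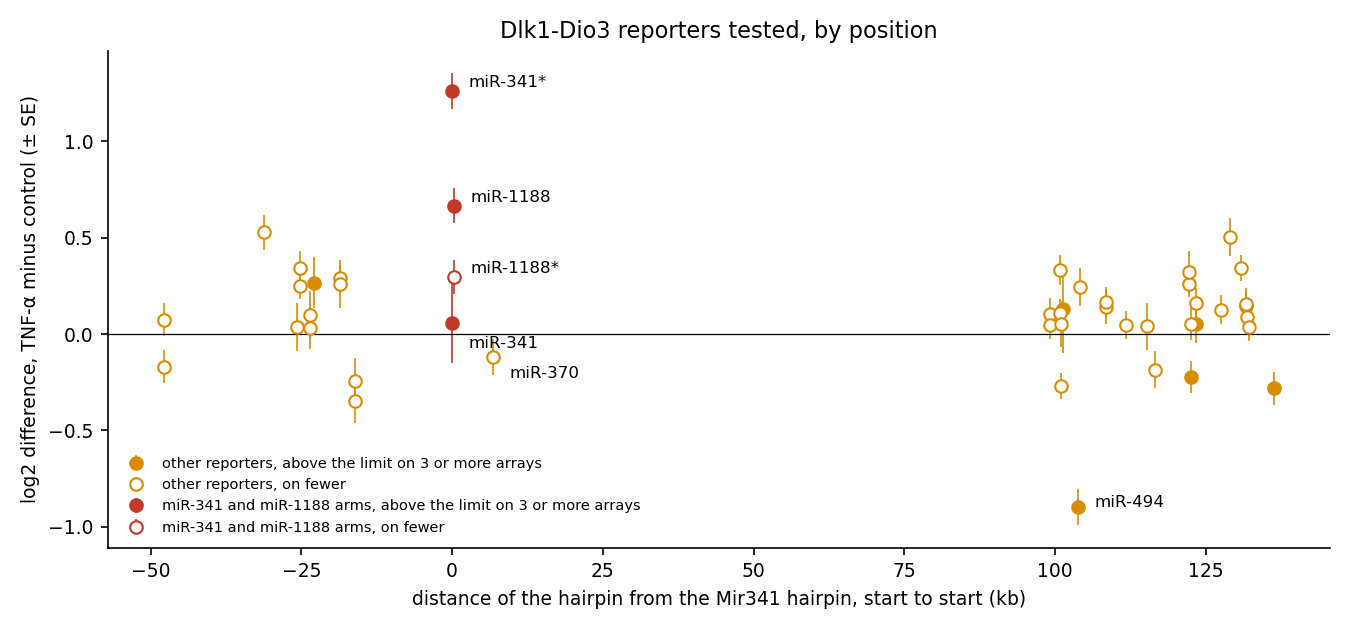
Log2 difference, TNF-α minus control, with its SE (vertical axis) against the distance in kb from the start of the Mir341 hairpin to that of the reporter's hairpin (horizontal axis), for tested reporters of the domain; miR-1247, far downstream, and miR-544 and miR-666, which had no position in the sequence table, are not drawn. Filled points exceeded the background limit on at least 3 arrays; miR-341* (1.26) and miR-494 (-0.90) mark the ends of the range.

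The nearest neighbours were at or near background. miR-370, the next hairpin downstream, read 91.3, 99.8 and 86.9 in the TNF-α cultures, against 83.7, 103 and 74.2 in the control cultures. The groups overlapped, no array exceeded the limit, and the log2 difference was -0.12 ± 0.09 (SE, limma, adjusted p = 0.397). Its sign turned with no scaling (0.06) and with median scaling (0.17). miR-370* and both arms of miR-136, the next hairpin upstream, exceeded the limit on no array and did not reach the filter. miR-3071, from the strand opposite miR-136, read 95.5, 77.3 and 95.1 with TNF-α and 96.8, 95.6 and 80.8 in controls, above the limit on 1 control array (-0.25, limma, adjusted p = 0.177). miR-3071* exceeded the limit on no array and read 90.2, 65.3 and 80.3 with TNF-α and 86.1, 93.0 and 78.3 in controls (-0.35, limma, adjusted p = 0.0554). Neither passed, and the groups overlapped for both; miR-3071* passed as lower with cyclic loess (-0.41), and the sign of miR-3071 turned with median scaling (0.02).

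Upstream lies a group of hairpins bounded by position alone, from miR-673 to miR-136. It takes in the hairpins transcribed antisense to Rtl1, and miR-3071 was counted with it. In this group 4 of 11 tested reporters (36.4%, against 12.9% of all tested) were higher and 0 lower (against 9.81%) by limma. At an unadjusted p under 0.05 by limma, 4 were higher and 1 lower, against 120 and 108 of all 642. However, 3 of the 4 higher by limma reached the filter with TNF-α alone, as did 34 of the 83 higher among all tested. miR-493 read 129.9, 121 and 95.3 with TNF-α and 73.0, 69.6 and 64.3 in controls, above the limit on 1 TNF-α array (0.53 ± 0.09, SE, limma, adjusted p = 0.00718). It reached the filter with TNF-α alone, so its test was conditional on separated groups and the size of its difference is not measured. miR-665 (0.34) was likewise above it on 1 TNF-α array, while miR-665* (0.25) and miR-127, known in mice to direct cleavage of the Rtl1 mRNA (0.29), exceeded it on no array. Several of these calls rested on single arrays. miR-665 no longer passed when TNF-α replicate 2 (0.27), TNF-α replicate 3 (0.39), control replicate 2 (0.32) or control replicate 3 (0.29) was omitted. The same held for miR-665* on omitting control replicate 2 or control replicate 3 (0.24 each), and for miR-127 on omitting control replicate 1 (0.24) or control replicate 2 (0.28). On omitting any 1 TNF-α array miR-493, miR-665* and miR-127 did not reach the filter and were not tested. miR-3070b-3p, the only reporter of the group above the limit on at least 3 arrays, read 210.05, 144 and 148 with TNF-α and 127.8, 129 and 124 in controls and did not pass (0.27 ± 0.13, limma, adjusted p = 0.179). Under the alternatives it passed as higher with median scaling (0.47) and on omitting TNF-α replicate 2 (0.41).

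Downstream, in the group of hairpins around Mirg, 5 of 30 tested reporters (16.7%, against 12.9% of all tested) were higher and 2 (6.67%, against 9.81%) lower by limma. Of the 5 that were higher, 4 reached the filter with TNF-α alone, against 34 of the 83 higher among all tested. miR-494 fell, with densities of 689.7, 667 and 493 in the TNF-α cultures against 1363, 1386 and 1122 in the control cultures. All TNF-α arrays lay below all control arrays, as they did for 6.7% of tested reporters, and all 6 exceeded the limit (-0.90 ± 0.10, SE, limma, adjusted p = 0.00114). miR-494 and miR-341*, both well above background in both groups, thus differed in opposite directions. The difference of miR-494 ran from -1.15 to -0.81 over the 18 alternatives. miR-377 rose (0.50 ± 0.10, limma, adjusted p = 0.0108), above the limit on 1 TNF-α array. In the processed table its difference was 0.84.

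The other rises in this group, miR-541* (0.34), miR-1197 (0.33), miR-382 (0.26) and miR-544-5p (0.24), and the fall of miR-323-3p (-0.27), were in reporters that exceeded the limit on no array. miR-1197 no longer passed on omitting control replicate 1 (0.29) or control replicate 2 (0.32), miR-382 on omitting any 1 control (0.25 to 0.27), and miR-544-5p on omitting control replicate 2 (0.20) or control replicate 3 (0.24). On omitting any 1 TNF-α array these 3 and miR-541* did not reach the filter and were not tested. miR-323-3p no longer passed on omitting TNF-α replicate 2 or TNF-α replicate 3 (-0.26 each), and its sign turned with median scaling (0.03). Bright or clear members that did not pass were miR-3072* (-0.28, limma, adjusted p = 0.0508), miR-758* (0.13), miR-485* (0.05) and miR-134 (-0.22). Under the alternatives miR-758* passed as higher on omitting TNF-α replicate 2 (0.45), and miR-134 passed as lower in the processed table (-0.35). miR-3072* read 981, 869 and 872 with TNF-α and 1386, 1335 and 1170.0 in controls, with no overlap, and passed as lower under 9 of its 18 alternatives. miR-770, hosted by Meg3, and miR-1247, near Dio3, had 4 reporters tested, of which 0 passed by limma. Of all tested, 12.9% were higher and 9.81% lower. At an unadjusted p under 0.05 by limma, 0 of the 4 were higher and 1 lower, against 120 and 108 of all 642. miR-1247 exceeded the limit on the 3 control arrays (-0.16).

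**Figure D4:**
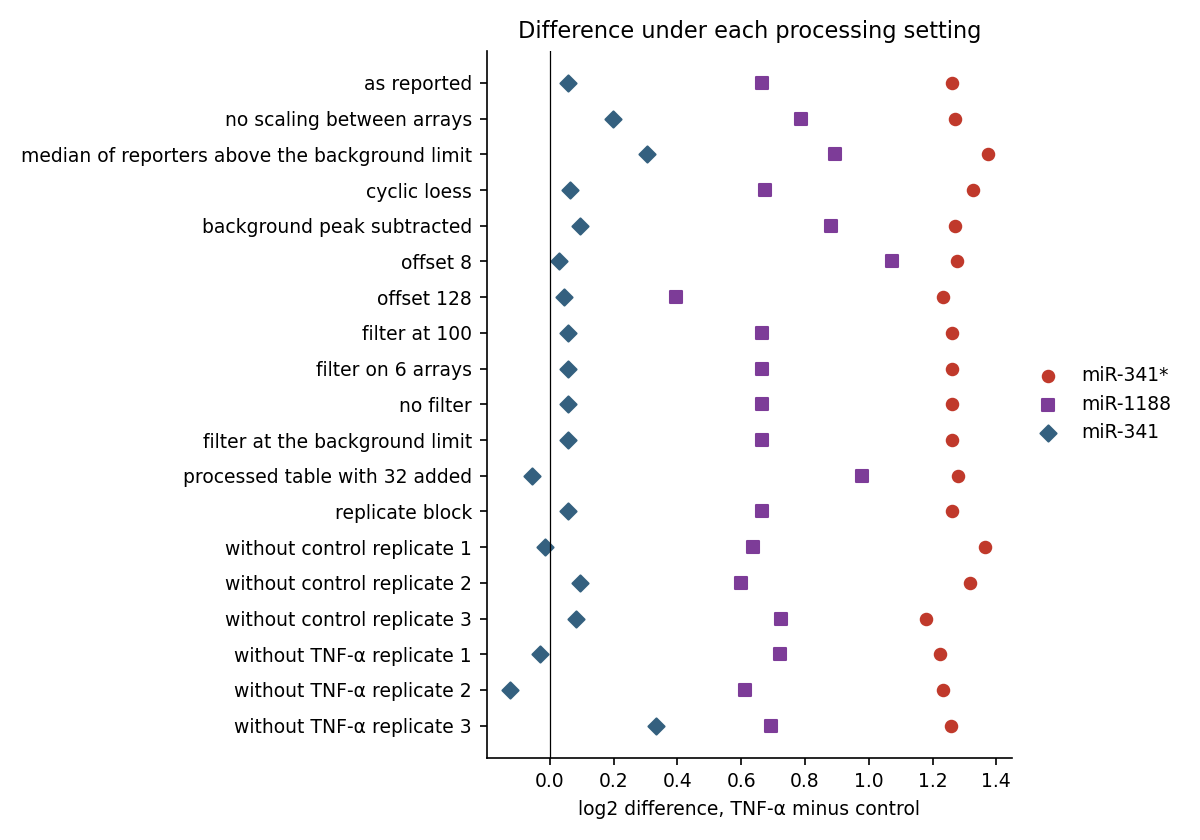
Log2 difference, TNF-α minus control (horizontal axis), of miR-341*, miR-1188 and miR-341 as reported and under each of the 18 alternative settings (rows). miR-341* stays between 1.18 and 1.38, miR-1188 between 0.39 and 1.07, and miR-341 between -0.12 and 0.33, on both sides of 0.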

How the data were processed

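The authors deposited, per the file headers, 1 median density and 1 standard deviation per reporter and array, which are linear intensities without background subtraction, and a table of processed intensities whose scaling is unknown. Scanner and software are not given in the sources. Densities were corrected with normexp, 50 was added, and log2 values were quantile normalized in limma 3.58.1 (R 4.3.3). Reporters reaching a corrected density of 32 on at least 3 arrays were tested with group as the only term, in a two-sided moderated test, and p-values were adjusted by Benjamini-Hochberg over the 642. The log2 scale with this offset understates changes of dim reporters. The p-values set the group difference against the spread between cultures, moderated over all tested reporters, and the number of arrays limits the precision. As the number of mice is not given, they do not speak for the spread between animals.

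The 3 reporters and the list of the domain were chosen with earlier results of these data known. Named besides them are list members that passed, exceeded the background limit on 3 arrays or lie next to the 2 hairpins, the 4 nearest profiles of each, and the 5 largest rises. The domain list was matched by hairpin name, and the cell type markers by exact reporter name. All 4 arms were found in the RefSeq table. The procedure was tested on simulated data, with changes put only into reporters above the background limit on at least 3 arrays. Changes in dimmer reporters were not simulated. Replicate numbers follow the titles; the descriptions number both the second and the third TNF-α sample as 3.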

Additional observations from a re-analysis of the deposited data

How the results depend on the processing

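miR-341* kept its direction under all 18 alternatives run, at 1.23 to 1.38 under those that kept all arrays and 1.18 to 1.37 with 1 array left out. miR-1188 was 0.79 with no scaling, 0.89 with scaling to the median of reporters above the background limit on all arrays, 0.88 with the background peak subtracted, 1.07 and 0.39 with the smaller and the larger offset, 0.98 in the processed table with 32 added, and 0.60 to 0.73 with 1 array left out. miR-341, 0.06 as reported, was 0.20 unscaled, 0.30 under median scaling, -0.057 for the processed table and -0.12 to 0.33 with 1 array left out. The changed reporters, 146 as reported, numbered 291 under median scaling, 77 at the filter of 100 and 70 to 91 with 1 array left out. The domain's higher reporters, 9 as reported, numbered 21 with no scaling, 30 with median scaling, 1 with the peak subtracted, 16 with no filter, 2 in the processed table, 1 to 6 with 1 array left out, and 0 with a filter at 100, on 6 arrays or at the background limit, where few remained to test. Its lower reporters, 2 as reported, numbered 4 with cyclic loess and in the processed table, and 1 or 2 with 1 array left out. Counting only the 7 clear of background, 0 higher and 1 lower, was added after seeing the data. The median difference of all tested reporters was 0.14 with no scaling, 0.25 under median scaling and -0.12 for the processed table. The higher share of calls was 56.8% as reported, and 79.9%, 90.03% and 32.5% there. Signs turned for miR-323-3p (0.027), miR-3071 (0.024) and miR-134 (0.023) under median scaling, miR-1247 with no scaling (0.0034) and median scaling (0.11), and miR-370 with both (0.059 and 0.17). With 1 array left out miR-485* ran from -0.043 to 0.12 and miR-758* from -0.074 to 0.45. miR-1188* lost its call with the smaller offset (0.51), with the larger (0.17) and with no filter (0.30), and ran from 0.22 to 0.37 with 1 array left out. The cause of these shifts was not tested.

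With the replicate number as a block 103 reporters changed and 5 of the domain were higher. Same-numbered arrays deviated together at correlations of 0.04, 0.02 and 0.15, and 3 of 6 arrays correlated best with their own number, so the numbers are not taken to pair the cultures. That numbering is uncertain for TNF-α replicates 2 and 3. A slide term was not run because no slide is named in the files used here; the titles carry 1 code for all TNF-α cultures and another for all controls, and if it stands for a slide, slide and group cannot be told apart. Signal over background limits what can be said of miR-341, miR-1188 and most of the domain.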
